A study of Rattus norvegicus with 9 samples.

Results

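The genes described here carry cells through mitosis. They are 54 listed genes for the kinase switch that starts mitosis, the spindle checkpoint, the centromere and kinetochore, the spindle, condensation of chromosomes, cytokinesis and the exit from mitosis. Kinesins other than Cenpe are left out. The list is one of gene names, chosen with earlier results of these data known. Its rule took, for each gene, the probe set with the highest mean over all 9 arrays. Of these, 47 had a probe set of their own on the array, and all 47 passed the filter on low signals, among 9956 genes tested of 14217 on the array. Cdc25c, Nek2, Ndc80, Tpx2 and Ncapg had no probe set that named them, and Ckap2 and Anln shared theirs with other genes, so these 7 were not measured here.

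The study set cells made from rat embryonic stem cells (rESCs) beside retinal progenitor cells (RPCs) taken from the animal, on the Affymetrix Rat Genome 230 2.0 Array, 3 per cell type, which the labels call biological replicates. rESC-RPC2 and rESC-RPC1 both came from the DA rat line DA8-16, were grown as aggregates with a Wnt inhibitor, Matrigel and, from day 8, serum, and were harvested on day 16. rESC-RPC2 were moved to adherent culture on day 14, and rESC-RPC1 on day 10, with a change to N2 medium with serum on day 14. P-RPC were obtained by dissociating retinal tissue of 1-day-old SD rats, and no sorting was described. Strain, and tissue against culture, change together with the cell type in each comparison with P-RPC, and between the rESC-RPCs the medium differed along with the days spent adherent, so these cannot be told apart. The rESC-RPCs rest on a single cell line.

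Mitosis is driven by CDK1 bound to a B-type cyclin, which is held back by inhibitory phosphates until CDC25 phosphatases remove them. The kinetochore, built on the centromere, then attaches each chromosome to spindle microtubules, and the spindle checkpoint blocks the anaphase promoting complex (APC/C) until all are attached. The APC/C afterwards destroys securin and cyclin B, which frees separase to part the sister chromatids. Many of these genes are transcribed only late in the cell cycle, through a short promoter element called the CHR and through CCAAT boxes. The newborn rat retina still holds dividing progenitors, but which cells of P-RPC gave these transcripts was not measured.

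All values are MAS 5.0 signals, linear intensities that put every array on the same overall level. Every log2 fold change is a difference of mean log2 signals from limma over all 9 arrays, negative where the first group named was lower. To be called, a gene needed a fold change of at least 2 and an adjusted p under 0.05 (Benjamini-Hochberg over the 9956 genes). Signals under 123, the median of all values, count as under the detection threshold. Levels of different probe sets cannot be set against each other as amounts of RNA, so genes are compared only between arrays. A summed signal is weighted by its brightest probe sets, and a gene's part in it is a part of the signal. In bulk samples fewer dividing cells and less of these RNAs per cell cannot be told apart.

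The labels were set against markers. Summed signals of 9 retinal progenitor markers were 12883 to 14071 on the rESC-RPC2 arrays, 16604 to 22083 on the rESC-RPC1 arrays and 43666 to 45339 on the P-RPC arrays. Pax6 was the largest single part of the P-RPC sums, at 13480 to 14230. Pax6, Rax, Six6, Lhx2, Hes1 and Sfrp2 each had all rESC-RPC arrays below all P-RPC arrays. Rax was at 77 to 222 in rESC-RPC2 and 135 to 382 in rESC-RPC1, against 4557 to 4696 in P-RPC. Of the 8 markers tested against P-RPC, 6 were called lower and 0 higher in rESC-RPC2. In rESC-RPC1, 4 were called lower and 1 higher. Sox2 (6273 to 6631 in rESC-RPC2 and 7784 to 10340 in rESC-RPC1, against 4901 to 4965 in P-RPC) and Nes went the other way. Six3 was under the threshold on every array of all 3 groups, and Pax6 was so in rESC-RPC2. All 5 photoreceptor markers measured were under it in both rESC-RPCs, so these defining markers were absent there at this level of detection, against sums of 6925 to 8320 in P-RPC. Mesenchymal and smooth muscle markers summed to 9225 to 16728 in rESC-RPC2 and 17531 to 42941 in rESC-RPC1, against 702 to 795 in P-RPC, and neuronal markers to 52865 to 58922, 20857 to 30123 and 25885 to 31055 in the same order. P-RPC also held RNA of other cells: red blood cell markers, chiefly Hbb, summed to 10 to 42 in rESC-RPC2 and 51 to 75 in rESC-RPC1, against 14011 to 15168 in P-RPC, and lens markers reached 130635 on the first P-RPC array but 1858 and 5373 on the others. Astrocyte and radial glia markers summed to 38799 to 40748 in rESC-RPC2 and 46889 to 68160 in rESC-RPC1, against 22597 to 28043 in P-RPC. Vim made up most of the rESC-RPC2 sums, at 21770 to 26930 against 8703 to 11170 on the P-RPC arrays. Slc1a3 (2664 to 3256 against 4605 to 5226) and Gja1 (3474 to 4308 against 7989 to 9596) went the other way there. Of this list, 3 markers were called higher and 1 lower when rESC-RPC2 was set against P-RPC. Markers of the pigment epithelium summed to 310 to 424, 1879 to 6202 and 7949 to 8634 in rESC-RPC2, rESC-RPC1 and P-RPC. In rESC-RPC1, 4 of them were called lower than in P-RPC, while Mitf (592 to 704 against 237 to 263) and Dct (1033 to 4630 against 865 to 1160) were called higher. Endothelial markers summed to 317 to 384, 642 to 1258 and 6748 to 7142 in the same order of groups. The P-RPC sums were nearly all Kdr, at 6357 to 6722, while Pecam1, Tie1, Tek, Esam and Flt1 were under the threshold on every P-RPC array. Microglia markers summed to 263 to 304, 162 to 283 and 1296 to 1510 in that order. The part of these cell types in the results was not tested. Without that P-RPC array the counts of mitosis genes called lower than in P-RPC, given next, were 35 in rESC-RPC2 and 18 in rESC-RPC1. The summed signals of the 47 mitosis genes were nearly the same on all 3 P-RPC arrays, at 140079 to 143830.

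Mitosis genes were lower in both kinds of rESC-RPCs than in P-RPC, and lower in rESC-RPC2 than in rESC-RPC1 by a smaller step. In rESC-RPC2, 33 of the 47 genes were called lower than in P-RPC, where 13.0% of all genes tested were, and 0 were called higher (10.7% of all genes). In rESC-RPC1, 18 were called lower (9.56% of all genes) and 0 higher (12.0%). The median log2 fold change of the 47 genes was -1.19 in rESC-RPC2 and -0.88 in rESC-RPC1, while that of all genes was -0.02 and -0.01. All 47 estimates were below 0 in both comparisons. The comparisons share the P-RPC arrays. With fold size set aside, 46 genes were lower in rESC-RPC2 at an adjusted p under 0.05 (32.9% of all genes) and 0 higher (30.3%). In rESC-RPC1, 43 were lower (30.1%) and 0 higher (30.0%). At an unadjusted p under 0.05, 0 were higher in either.

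The signals of the rESC-RPCs rarely overlapped those of P-RPC. All 3 rESC-RPC2 arrays were below all 3 P-RPC arrays for 47 of 47 genes, where 37.7% of all genes tested did so. All 3 rESC-RPC1 arrays were below P-RPC for 45 genes (33.7% of all genes), and the exceptions were Plk1 and Aurka. Summed over the 47 genes, signals were 56178 to 67069 on the rESC-RPC2 arrays and 74437 to 82941 on the rESC-RPC1 arrays. Both ranges lay below that of P-RPC.

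**Figure D1:**
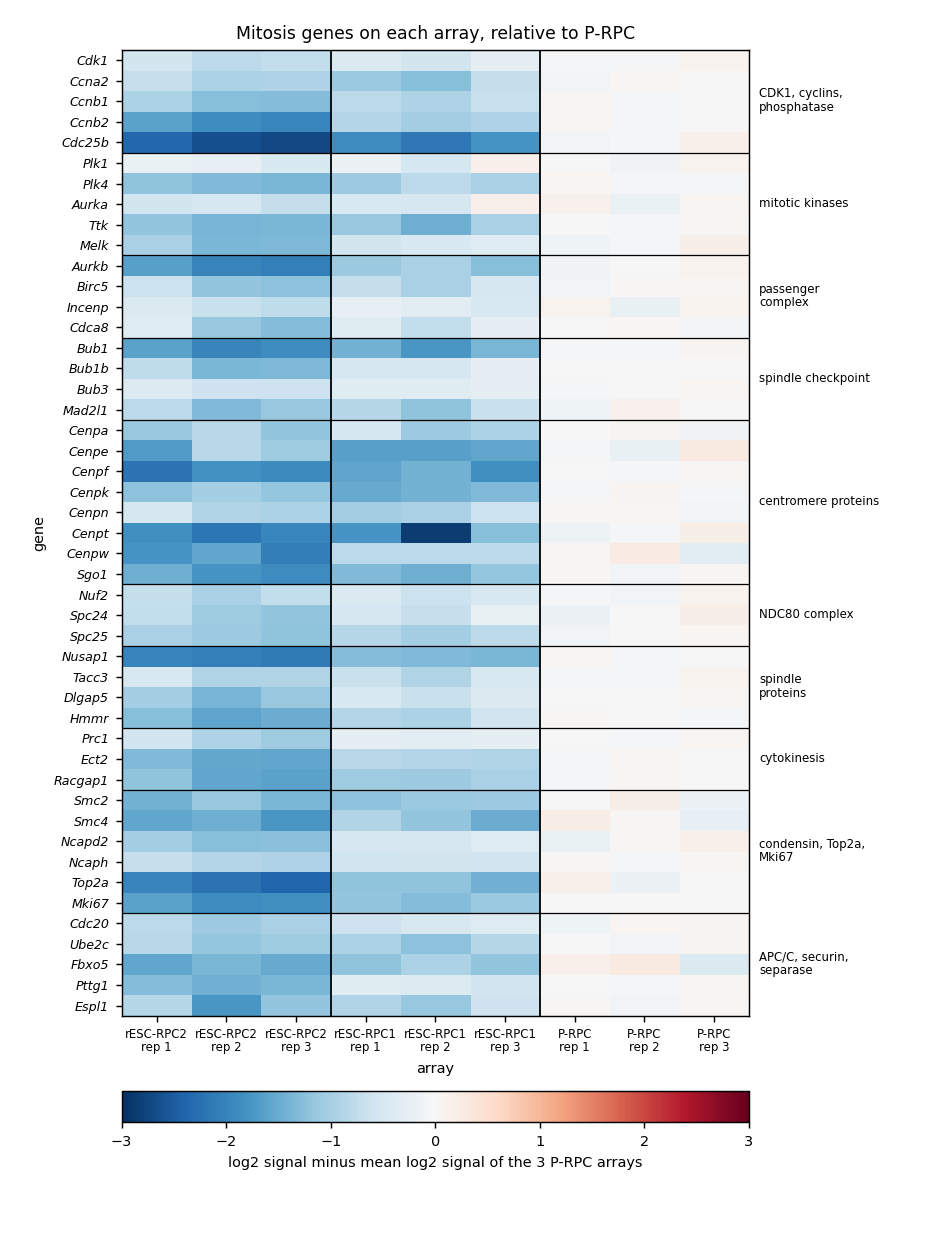
Log2 signal of each of the 47 mitosis genes (rows, grouped by role) on each of the 9 arrays (columns, rESC-RPC2, rESC-RPC1 and P-RPC, 3 each), minus the mean of the P-RPC arrays. Nearly every rESC-RPC cell is blue (lower), and Plk1 is the palest row. By mean, Cdc25b, Top2a and Nusap1 are the deepest rows in rESC-RPC2, while the deepest single cell is the dim Cenpt on rESC-RPC1 replicate 2.

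The promoters of the genes that fell furthest are shown because they are the members that moved most and because CHR and CCAAT letters are the sequence feature this group is known for. They are the 250 bases before the RefSeq start (GRCr8), for the 6 matched among the 8 genes with the largest fall in rESC-RPC2 against P-RPC. Aurkb and Cenpt, the others, were not matched. Bases are given 5′ to 3′ on the strand of the gene, and capitals mark the letters TTTGAA (CHR) and CCAAT on either strand, which read TTCAAA and ATTGG on the opposite one. The regions are Cdc25b (chr3:138859923-138860172, plus strand), Top2a (chr10:84473094-84473343, minus strand), Nusap1 (chr3:127057045-127057294, plus strand), Cenpf (chr13:103760887-103761136, minus strand), Ccnb2 (chr8:79981659-79981908, minus strand) and Bub1 (chr3:135504922-135505171, minus strand).
Cdc25b: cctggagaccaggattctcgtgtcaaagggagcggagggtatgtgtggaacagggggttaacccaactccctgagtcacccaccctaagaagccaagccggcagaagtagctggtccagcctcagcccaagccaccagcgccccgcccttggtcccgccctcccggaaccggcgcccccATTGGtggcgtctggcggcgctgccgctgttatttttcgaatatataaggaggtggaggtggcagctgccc
Top2a: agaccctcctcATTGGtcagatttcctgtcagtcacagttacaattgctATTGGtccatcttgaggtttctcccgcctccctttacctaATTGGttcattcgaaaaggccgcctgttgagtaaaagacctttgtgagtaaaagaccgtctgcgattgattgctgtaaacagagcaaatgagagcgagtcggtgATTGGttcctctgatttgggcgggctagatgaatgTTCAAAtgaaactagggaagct
Nusap1: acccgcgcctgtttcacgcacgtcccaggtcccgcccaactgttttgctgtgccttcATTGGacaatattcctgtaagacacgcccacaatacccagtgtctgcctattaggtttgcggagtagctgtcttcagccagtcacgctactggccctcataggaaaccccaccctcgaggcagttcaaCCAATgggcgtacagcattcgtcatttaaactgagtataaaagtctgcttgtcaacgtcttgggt
Cenpf: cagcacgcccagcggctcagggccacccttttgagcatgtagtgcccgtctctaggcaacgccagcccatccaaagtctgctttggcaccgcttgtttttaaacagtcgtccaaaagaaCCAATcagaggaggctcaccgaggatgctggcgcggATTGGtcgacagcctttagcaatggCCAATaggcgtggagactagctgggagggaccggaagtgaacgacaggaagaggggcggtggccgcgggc
Ccnb2: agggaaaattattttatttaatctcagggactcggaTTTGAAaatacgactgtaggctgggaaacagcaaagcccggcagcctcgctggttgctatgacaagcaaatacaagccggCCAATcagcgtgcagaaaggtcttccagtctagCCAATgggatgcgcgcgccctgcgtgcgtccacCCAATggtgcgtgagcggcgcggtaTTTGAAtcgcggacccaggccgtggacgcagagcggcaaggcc
Bub1: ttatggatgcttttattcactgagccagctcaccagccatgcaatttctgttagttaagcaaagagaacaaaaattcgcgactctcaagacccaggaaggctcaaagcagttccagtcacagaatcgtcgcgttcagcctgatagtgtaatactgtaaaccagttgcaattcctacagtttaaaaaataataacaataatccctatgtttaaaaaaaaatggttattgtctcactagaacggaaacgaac
Cdc25b holds 1 CCAAT match, at -71 from the start, and no CHR match. Ccnb2 holds 3 CCAAT matches at positions -134, -101 and -68, each 33 bases from the next, between a CHR match at -214 and another at -43. Top2a has 4 CCAAT matches and a CHR match at -22. In Nusap1 and Cenpf the CHR match lies just after the start, at 10 and 3, outside the stretch printed. Bub1 has neither motif in this window.

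Over all 41 members that the RefSeq table matched, by gene ID and with 1 start each, the window ran from 250 bases before to 50 after the start. The CHR letters were in 28 of 41 windows (68.3%), against 18.1% of 27457 RefSeq promoters and 11.0% of the 8333 promoters of genes tested here. CCAAT was in 32 (78.0%), against 37.7% and 38.1%, and both were in 23 (56.1%), against 7.25% and 4.70%. A second CCAAT match was in 23 (56.1%), against 11.5% and 13.9%, and in 17 members neighbouring matches started 25 to 45 bases apart. Within 75 bases before to 50 after the start lay the CHR match of 23 members. An E2F site (TTTGGCGC, TTTCCCGC, TTTCGCGC or TTTGCCGC, either strand) was found in 1, Cdk1 (2.44%, against 2.25% and 4.32%). No motif's letters contain those of another. A match describes the letters of 1 RefSeq start and no binding was measured. Ccna2, Aurkb, Incenp, Cenpt, Racgap1 and Ube2c were not matched.

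CDK1, its cyclins and their phosphatase fell unevenly. Of the 5 genes measured, Ccnb1, Ccnb2 and Cdc25b were called lower in rESC-RPC2 and Ccna2 and Cdc25b in rESC-RPC1. Cdc25b (gene ID 171103) encodes the phosphatase that activates CDK1 at the G2/M transition. It had signals of 276, 230.2 and 216 on the rESC-RPC2 arrays, 383, 319 and 408 on the rESC-RPC1 arrays and 1337, 1369 and 1567 on the P-RPC arrays. Its groups were fully apart, with rESC-RPC2 lowest, and it had the largest fall of all 47 genes in rESC-RPC2. Against P-RPC the log2 fold change was -2.57 in rESC-RPC2 (95% interval -2.87 to -2.27, adjusted p = 1.7e-07) and -1.95 in rESC-RPC1 (95% interval -2.25 to -1.65, adjusted p = 1.03e-06).

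Cdk1 (gene ID 54237), the kinase itself, moved much less. It had signals of 4051, 3442 and 3530.0 on the rESC-RPC2 arrays, 4355, 4041 and 4801 on the rESC-RPC1 arrays and 5734, 5631 and 6369 on the P-RPC arrays. Both rESC-RPC groups were below every P-RPC array, and overlapped each other. Its log2 fold change was -0.69 in rESC-RPC2 (adjusted p = 8.13e-05) and -0.43 in rESC-RPC1 (adjusted p = 0.00204), short of a fold of 2 in both. Ccnb1 (gene ID 25203), the B-type cyclin that CDK1 needs for entry into mitosis, had signals of 2598, 2065 and 2026 on the rESC-RPC2 arrays, 2835, 2623 and 3110.0 on the rESC-RPC1 arrays and 5177, 4752 and 5021 on the P-RPC arrays. All 3 groups were apart. Set against P-RPC, it changed on the log2 scale by -1.17 in rESC-RPC2 (adjusted p = 5.71e-06) and by -0.81 in rESC-RPC1 (adjusted p = 8.6e-05). A second Ccnb1 probe set, detected on all 9 arrays, gave -1.15 in rESC-RPC2 against P-RPC, a log2 value of -0.19 for rESC-RPC1, whose arrays overlapped those of P-RPC (limma over all probe sets, adjusted p = 0.434), and -0.95 in rESC-RPC2 against rESC-RPC1.

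Ccnb2, the other B-type cyclin, gave log2 fold changes of -1.82 in rESC-RPC2, where it was called, and -0.95 in rESC-RPC1. Its mean signal was 1694 ± 219 in rESC-RPC2, 3071 ± 184 in rESC-RPC1 and 5932 ± 186 in P-RPC (SD, n = 3 each). Ccna2, cyclin A2 of S phase and G2, averaged 2539.5 ± 271, 2280.0 ± 477 and 4600.3 ± 212 in the same groups. The rESC-RPCs overlapped for Ccna2, with a log2 estimate of 0.17 in rESC-RPC2 against rESC-RPC1 (95% interval -0.13 to 0.47).

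Among the mitotic kinases, Ttk, Plk4 and Melk were called lower in rESC-RPC2 and Ttk alone in rESC-RPC1, while Plk1 and Aurka had the smallest estimates. Plk1 (gene ID 25515), the polo-like kinase of centrosome maturation and mitotic entry, had signals of 738, 704 and 609 on the rESC-RPC2 arrays, 740.4, 585 and 930.5 on the rESC-RPC1 arrays and 853, 776 and 899.7 on the P-RPC arrays. Of the rESC-RPC1 arrays, replicate 3 was above all P-RPC arrays. The log2 estimate of -0.30 in rESC-RPC2 did not pass the test (95% interval -0.65 to 0.04, adjusted p = 0.114), nor did -0.19 in rESC-RPC1 (95% interval -0.54 to 0.16, adjusted p = 0.325). Plk1 alone among the 47 genes was not lower in rESC-RPC2 at an adjusted p under 0.05.

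Aurka, the aurora kinase of spindle poles, had log2 fold changes of -0.58 in rESC-RPC2 (adjusted p = 0.0121) and -0.28 in rESC-RPC1 (adjusted p = 0.18). Ttk (gene ID 315852), also called Mps1, the kinase that starts checkpoint signalling at unattached kinetochores, had signals of 1375, 1173 and 1195 on the rESC-RPC2 arrays, 1404, 1117 and 1583 on the rESC-RPC1 arrays and 3112, 3016 and 3174 on the P-RPC arrays. It was clear of P-RPC on every rESC-RPC array, and the rESC-RPCs overlapped. The log2 fold changes of Ttk were -1.32 in rESC-RPC2 (adjusted p = 7.4e-06) and -1.19 in rESC-RPC1 (adjusted p = 1.62e-05). A second Ttk probe set, detected on 8 arrays, gave -1.52 in rESC-RPC2 and -0.86 in rESC-RPC1, where it was short of a fold of 2. Plk4, which starts the copying of centrioles, had log2 fold changes of -1.31 and -0.94 in rESC-RPC2 and rESC-RPC1, and Melk, a kinase of dividing progenitors, -1.23 and -0.46.

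The chromosomal passenger complex, which corrects wrong attachments and later organises the midzone, had its largest change in its kinase. Aurkb (gene ID 114592) had signals of 736, 572 and 556 on the rESC-RPC2 arrays, 1063, 1169 and 947 on the rESC-RPC1 arrays and 2143, 2261 and 2479 on the P-RPC arrays. All 3 groups were apart, with rESC-RPC2 lowest. On the log2 scale the difference from P-RPC was -1.89 in rESC-RPC2 (95% interval -2.17 to -1.61, adjusted p = 7.36e-07) and -1.12 in rESC-RPC1 (95% interval -1.40 to -0.84, adjusted p = 3.27e-05).

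Incenp (gene ID 293733), the scaffold that binds and activates Aurora B, had signals of 281, 239 and 224 on the rESC-RPC2 arrays, 321, 304 and 271 on the rESC-RPC1 arrays and 411, 326 and 412 on the P-RPC arrays. P-RPC stayed above both rESC-RPCs, by a small margin on its second array. For Incenp limma gave log2 fold changes of -0.62 in rESC-RPC2 (adjusted p = 0.00355) and -0.35 in rESC-RPC1 (adjusted p = 0.0568). Birc5, or survivin, which brings the complex to centromeres, gave log2 values of -1.02 in rESC-RPC2, where it was called, and -0.73 in rESC-RPC1. Cdca8, or borealin, gave log2 fold changes of -0.95 in rESC-RPC2 and -0.46 in rESC-RPC1 (adjusted p = 0.00255 and 0.0802).

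Of the 4 spindle checkpoint genes measured, Bub1, Bub1b and Mad2l1 were called lower in rESC-RPC2 and Bub1 in rESC-RPC1. Bub1 (gene ID 296137), a kinase that loads checkpoint proteins on kinetochores, had signals of 1287, 994 and 1079 on the rESC-RPC2 arrays, 1450.0, 1169 and 1499 on the rESC-RPC1 arrays and 3781, 3796 and 4146 on the P-RPC arrays. Every rESC-RPC array was below every P-RPC array, and the rESC-RPCs overlapped. Against P-RPC the log2 fold change was -1.81 in rESC-RPC2 (adjusted p = 7.23e-07) and -1.52 in rESC-RPC1 (adjusted p = 2.82e-06). Its promoter window, shown above, had no CHR or CCAAT letters.

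Bub3 (gene ID 361662), the adaptor that carries Bub1 and BubR1 to kinetochores, had signals of 5568, 4817 and 4777 on the rESC-RPC2 arrays, 5746, 5736 and 6088 on the rESC-RPC1 arrays and 7212, 7250.0 and 7648 on the P-RPC arrays. The groups were apart with narrow gaps. Its log2 fold change was -0.55 in rESC-RPC2 (adjusted p = 7.96e-05) and -0.33 in rESC-RPC1 (adjusted p = 0.00236). A second probe set for Bub3, close to the detection threshold, went the other way in rESC-RPC2 against P-RPC, at 0.66 on the log2 scale (p adjusted over all probe sets tested, 0.0331). Bub1b, which encodes the checkpoint inhibitor BubR1, gave log2 fold changes of -1.17 in rESC-RPC2 and -0.43 in rESC-RPC1. Mad2l1, which encodes MAD2, the inhibitor of Cdc20, gave -1.08 and -0.91 on the same scale. Its further probe sets, detected on all 9 arrays, differed. In rESC-RPC2 and rESC-RPC1, 1 gave -0.72 and -0.77, short of a fold of 2, and another -1.32 and -1.32, past it.

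By role, the centromere proteins had the lowest median log2 fold change in both comparisons with P-RPC, at -1.45 in rESC-RPC2 and -1.37 in rESC-RPC1. In rESC-RPC2 7 of 8 were called lower, and in rESC-RPC1 5 of 8. Cenpt (gene ID 307805), an inner kinetochore protein that links centromeric DNA to the NDC80 complex, had signals of 105, 84.7 and 97.1 on the rESC-RPC2 arrays, 111, 52.6 and 156 on the rESC-RPC1 arrays and 343, 369 and 428 on the P-RPC arrays. All rESC-RPC2 arrays and 2 of the rESC-RPC1 arrays were under the detection threshold, so it is given as at least 3.08-fold lower in rESC-RPC2 (adjusted p = 0.000435), with the threshold as the level of rESC-RPC2. In rESC-RPC1, where 1 array was above the threshold and the level is poorly known, the log2 estimate was -1.96 (95% interval -2.70 to -1.23, adjusted p = 0.000518).

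Cenpw (gene ID 689399), which pairs with CENP-T in a histone-fold complex, had signals of 834, 960.4 and 675 on the rESC-RPC2 arrays, 1610.0, 1621 and 1660.0 on the rESC-RPC1 arrays and 2974, 3362 and 2285 on the P-RPC arrays. All 3 groups were apart, and P-RPC was the most spread. Set against P-RPC, it changed on the log2 scale by -1.80 in rESC-RPC2 (adjusted p = 4.08e-06) and by -0.80 in rESC-RPC1 (adjusted p = 0.00115). Cenpn (gene ID 361416), which reads the CENP-A nucleosome, had signals of 1380.0, 1048 and 1018 on the rESC-RPC2 arrays, 947, 997 and 1259 on the rESC-RPC1 arrays and 2011, 2047 and 1847 on the P-RPC arrays. It was below P-RPC throughout, with overlap between the rESC-RPCs. The log2 fold changes of Cenpn were -0.79 in rESC-RPC2 (adjusted p = 0.000616) and -0.89 in rESC-RPC1 (adjusted p = 0.000303).

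Cenpa, the histone H3 variant that marks the centromere, was called in rESC-RPC2, at -1.05 on the log2 scale, and gave -0.86 in rESC-RPC1. Cenpf, a large protein of the outer kinetochore, was called lower in both, with log2 fold changes of -1.98 in rESC-RPC2 and -1.62 in rESC-RPC1. Cenpe, the motor that moves chromosomes to the spindle equator, was called lower in both, at -1.20 and -1.61 on that scale. Its rESC-RPC2 arrays were spread, with signals of 204, 376 and 319. Without the first of these arrays the log2 fold change of Cenpe in rESC-RPC2 was -0.95, short of a fold of 2. Sgo1, the shugoshin that guards centromeric cohesin, and Cenpk were also called in both, Sgo1 at -1.71 and -1.32 and Cenpk at -1.14 and -1.42 in rESC-RPC2 and rESC-RPC1.

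The NDC80 complex, which grips microtubule ends, had 3 of its 4 genes measured. Spc25 (gene ID 295661) had signals of 1708, 1578 and 1444 on the rESC-RPC2 arrays, 1844, 1638 and 1944 on the rESC-RPC1 arrays and 3149, 3370.0 and 3490.0 on the P-RPC arrays. P-RPC stood above all rESC-RPC arrays. On the log2 scale the difference from P-RPC was -1.08 in rESC-RPC2 (adjusted p = 4.32e-06) and -0.89 in rESC-RPC1 (adjusted p = 1.94e-05).

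Nuf2 (gene ID 304951), the partner of Ndc80, had signals of 2369, 1980.0 and 2333 on the rESC-RPC2 arrays, 2861, 2503 and 2786 on the rESC-RPC1 arrays and 3822, 3667 and 4191 on the P-RPC arrays. The 3 groups were apart. For Nuf2 limma gave log2 fold changes of -0.81 in rESC-RPC2 (adjusted p = 3.36e-05) and -0.52 in rESC-RPC1 (adjusted p = 0.000775). Spc24, the partner of Spc25, was 1.99-fold lower in rESC-RPC2, just short of the call, and gave -0.47 on the log2 scale in rESC-RPC1.

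**Figure D2:**
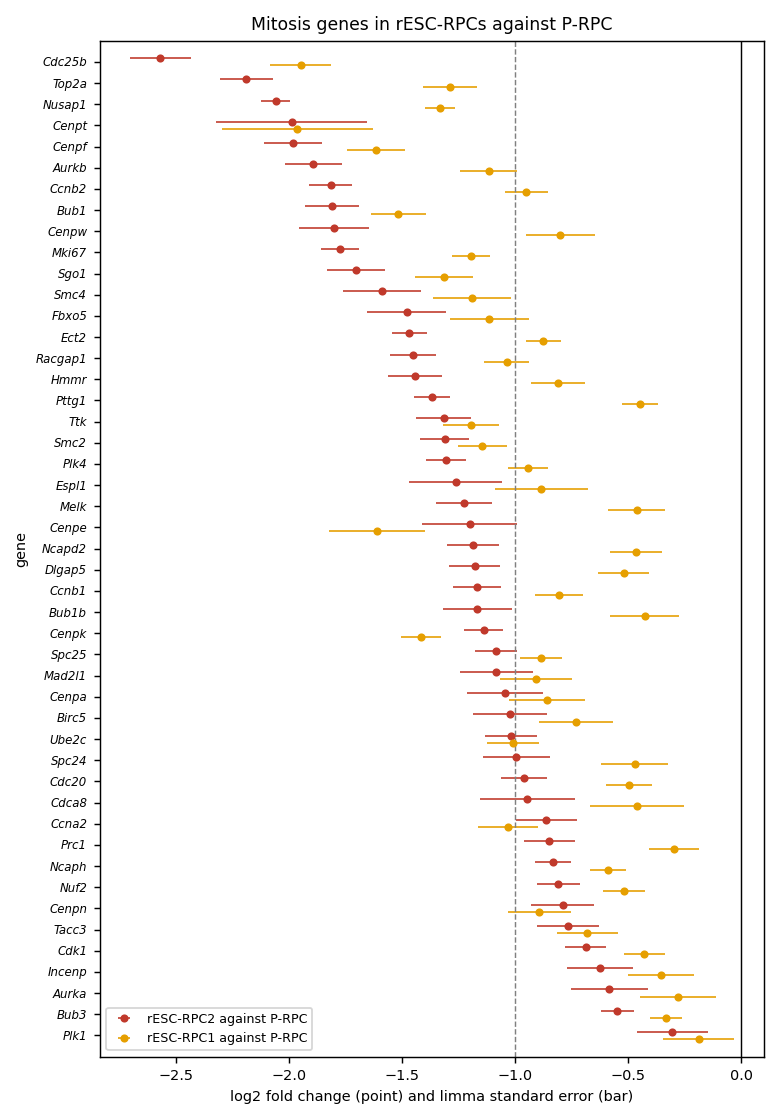
Log2 fold change (x axis) of each mitosis gene (rows) in rESC-RPC2 and rESC-RPC1 against P-RPC, with limma's standard error as bars and a dashed line at a fold of 2. Cdc25b is furthest to the left at -2.57 in rESC-RPC2 and Plk1 closest to 0 at -0.30, and only Ccna2, Cenpe, Cenpk and Cenpn lie further left in rESC-RPC1 than in rESC-RPC2.

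Spindle proteins followed, with 3 of 4 called lower in rESC-RPC2 and Nusap1 alone in rESC-RPC1. Nusap1 (gene ID 311336), which bundles spindle microtubules near chromosomes, had signals of 1674, 1615 and 1552 on the rESC-RPC2 arrays, 2734, 2668 and 2613 on the rESC-RPC1 arrays and 7001, 6517 and 6673 on the P-RPC arrays. Its replicates were the tightest of all the members in rESC-RPC2, and the 3 groups were well apart. Against P-RPC the log2 fold change was -2.06 in rESC-RPC2 (95% interval -2.21 to -1.92, adjusted p = 8.92e-09) and -1.33 in rESC-RPC1 (95% interval -1.48 to -1.19, adjusted p = 1.18e-07).

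Tacc3 (gene ID 360962), which strengthens the fibres that pull on kinetochores, had signals of 1644, 1227 and 1233 on the rESC-RPC2 arrays, 1455, 1240.0 and 1644 on the rESC-RPC1 arrays and 2204, 2247 and 2468 on the P-RPC arrays. The rESC-RPCs overlapped and both lay below P-RPC. Its log2 fold change was -0.77 in rESC-RPC2 (adjusted p = 0.000626) and -0.68 in rESC-RPC1 (adjusted p = 0.00144). Dlgap5, which stabilises the same fibres, gave log2 fold changes of -1.18 in rESC-RPC2, where it was called, and -0.52 in rESC-RPC1. Hmmr, a spindle protein also known as a hyaluronan receptor, gave -1.45, likewise called, and -0.81.

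For cytokinesis, Ect2 and Racgap1 were called lower in rESC-RPC2 and Racgap1 in rESC-RPC1. Ect2 (gene ID 361921), which acts at the cleavage furrow, had signals of 2569, 2212 and 2184 on the rESC-RPC2 arrays, 3606, 3461 and 3414 on the rESC-RPC1 arrays and 6208, 6699 and 6330.0 on the P-RPC arrays. All groups were apart. Set against P-RPC, it changed on the log2 scale by -1.47 in rESC-RPC2 (adjusted p = 1.7e-07) and by -0.88 in rESC-RPC1 (adjusted p = 5.66e-06).

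Prc1 (gene ID 308761), which ties antiparallel microtubules of the midzone, had signals of 2361, 1852 and 1674 on the rESC-RPC2 arrays, 2886, 2780.0 and 2869 on the rESC-RPC1 arrays and 3485, 3357 and 3649 on the P-RPC arrays. These groups were apart too. The log2 fold changes of Prc1 were -0.85 in rESC-RPC2 (adjusted p = 8.64e-05) and -0.30 in rESC-RPC1 (adjusted p = 0.0406). Racgap1, the GTPase activator that recruits Ect2 to the midzone, was called lower in both, at log2 fold changes of -1.45 in rESC-RPC2 and -1.04 in rESC-RPC1. A second Racgap1 probe set gave -1.24 and, short of a fold of 2, -0.91 in the same comparisons.

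Genes that condense and untangle chromosomes gave 5 of 6 calls in rESC-RPC2 and 4 of 6 in rESC-RPC1. Top2a (gene ID 360243), the topoisomerase that untangles sister DNA, had signals of 1401, 1203 and 1076 on the rESC-RPC2 arrays, 2392, 2395 and 2056 on the rESC-RPC1 arrays and 6204, 4933 and 5620.0 on the P-RPC arrays. The groups were apart, in the order rESC-RPC2, rESC-RPC1, P-RPC. On the log2 scale the difference from P-RPC was -2.19 in rESC-RPC2 (95% interval -2.45 to -1.93, adjusted p = 2.01e-07) and -1.29 in rESC-RPC1 (95% interval -1.55 to -1.03, adjusted p = 7.73e-06). Its second probe set gave -2.40 in rESC-RPC2 and -1.34 in rESC-RPC1 on the log2 scale.

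Mki67 (gene ID 291234), the Ki-67 protein that coats mitotic chromosomes and is used as a marker of proliferation, had signals of 2263, 1871 and 1940.0 on the rESC-RPC2 arrays, 3061, 2792 and 3206 on the rESC-RPC1 arrays and 6915, 6869 and 6922 on the P-RPC arrays. The P-RPC arrays were nearly equal and the rESC-RPCs did not overlap. For Mki67 limma gave log2 fold changes of -1.77 in rESC-RPC2 (adjusted p = 9.11e-08) and -1.19 in rESC-RPC1 (adjusted p = 1.31e-06).

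Ncaph (gene ID 680089), the subunit that closes the condensin ring, had signals of 1633, 1441 and 1400.0 on the rESC-RPC2 arrays, 1743, 1793 and 1743 on the rESC-RPC1 arrays and 2697, 2529 and 2719 on the P-RPC arrays. All groups were apart by small steps. Against P-RPC the log2 fold change was -0.83 in rESC-RPC2 (adjusted p = 9.56e-06) and -0.59 in rESC-RPC1 (adjusted p = 0.00012). Ncapd2, another condensin subunit, was called lower in rESC-RPC2, at -1.19, and gave -0.46 in rESC-RPC1. The condensin ATPases were called lower in both, with log2 fold changes of -1.31 for Smc2 and -1.59 for Smc4 in rESC-RPC2, and of -1.15 and -1.19 in rESC-RPC1.

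Of the genes for mitotic exit, Ube2c, Fbxo5, Pttg1 and Espl1 were called lower in rESC-RPC2, and Ube2c and Fbxo5 in rESC-RPC1. Fbxo5 (gene ID 292263), which encodes the APC/C inhibitor EMI1, had signals of 275, 312 and 284 on the rESC-RPC2 arrays, 349, 419 and 357 on the rESC-RPC1 arrays and 906, 974 and 600.0 on the P-RPC arrays. The groups were apart, and P-RPC was the most spread. Its log2 fold change was -1.48 in rESC-RPC2 (adjusted p = 3.74e-05) and -1.11 in rESC-RPC1 (adjusted p = 0.000303). Without P-RPC replicate 2 the log2 value for Fbxo5 in rESC-RPC1 was -0.98, short of the call.

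Cdc20 (gene ID 64515), the activator that the checkpoint restrains, had signals of 1545, 1257 and 1366 on the rESC-RPC2 arrays, 1763, 1928 and 2051 on the rESC-RPC1 arrays and 2462, 2796 and 2844 on the P-RPC arrays. All groups were apart. Set against P-RPC, it changed on the log2 scale by -0.96 in rESC-RPC2 (adjusted p = 1.75e-05) and by -0.50 in rESC-RPC1 (adjusted p = 0.00169). Of the 3 further probe sets of Cdc20 that passed the filter, 1 was under the detection threshold on all rESC-RPC2 arrays, and the others gave log2 fold changes of -1.48 and -1.15 in rESC-RPC2, past a fold of 2. In rESC-RPC1 those others gave -1.25, past a fold of 2 with signals close to the detection threshold, and -0.62, short of it. Ube2c, the ubiquitin-conjugating enzyme of the APC/C, was called in both at the edge of a fold of 2, with log2 fold changes of -1.02 in rESC-RPC2 and -1.01 in rESC-RPC1. Espl1, or separase, gave -1.26 in rESC-RPC2, where it was called, and -0.88 in rESC-RPC1.

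**Figure D3:**
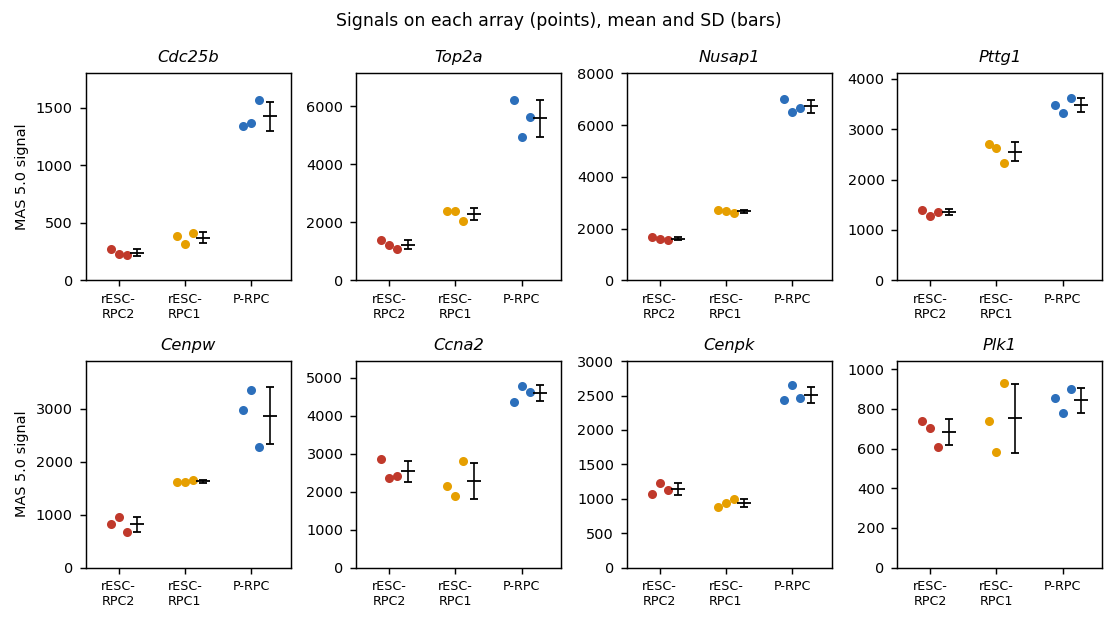
MAS 5.0 signal (linear y axis from 0) of 8 mitosis genes on each array of rESC-RPC2, rESC-RPC1 and P-RPC (points, 3 each) with mean and SD. Cdc25b, Top2a, Nusap1 and Pttg1 step down through both rESC-RPCs, Cenpw likewise, while Ccna2 and Plk1 overlap between the rESC-RPCs and Cenpk is lowest in rESC-RPC1.

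Between the rESC-RPCs the steps were smaller. In rESC-RPC2 against rESC-RPC1, 1 of 47 genes was called lower, where 9.25% of all genes tested were, and 0 higher (5.02%). The median log2 fold change was -0.37 for the members and -0.03 for all genes. At an adjusted p under 0.05 and any fold, 26 were lower in rESC-RPC2 (27.0% of all genes) and 1 higher (21.2%). All rESC-RPC2 arrays were below all rESC-RPC1 arrays for 24 genes (29.6% of all genes) and above for 1 (24.2%).

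The gene called was Cenpw, at -1.00 (95% interval -1.34 to -0.66, adjusted p = 0.000422), on the log2 scale, just past a fold of 2. The call of Cenpw was lost without rESC-RPC1 replicate 3 (-0.99) and without rESC-RPC2 replicate 3 (-0.87), and its second probe set gave -0.54. Pttg1 (gene ID 64193), securin, the inhibitor of separase, came next by estimate, with signals of 1403, 1285 and 1351 on the rESC-RPC2 arrays, 2696, 2630.0 and 2332 on the rESC-RPC1 arrays and 3477, 3327 and 3615 on the P-RPC arrays. On the log2 scale the rESC-RPC1 mean lay nearer to that of P-RPC than to that of rESC-RPC2. Its log2 fold change was -0.92 between the rESC-RPCs (adjusted p = 1.27e-05), beside -1.37 in rESC-RPC2 and -0.45 in rESC-RPC1 against P-RPC.

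Others lower in rESC-RPC2 than in rESC-RPC1, by log2 fold change, were Top2a (-0.90, adjusted p = 0.000164), Ccnb2 (-0.86, adjusted p = 4.97e-05) and Aurkb (-0.78, adjusted p = 0.00062). The second probe set of Top2a gave -1.06 on that scale. Melk, Bub1b, Nusap1 and Ncapd2 had -0.76, -0.74, -0.73 and -0.72. By role, the spindle proteins had the deepest median, -0.65, and the centromere proteins the shallowest, -0.11.

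Several genes had estimates near 0 or above it. Ube2c, Cenpt, Tacc3, Plk1 and Ttk had log2 fold changes of -0.01, -0.03, -0.08, -0.12 and -0.12. The second probe set of Ttk was further from 0, at -0.66 (limma over all probe sets, adjusted p = 0.0326). The interval for Ube2c ran from -0.26 to 0.25, and that for Cenpt, dim in both, from -0.76 to 0.71. Cenpk (gene ID 294712), an inner kinetochore protein, was the gene that was higher in rESC-RPC2, with signals of 1071, 1231 and 1123 on the rESC-RPC2 arrays, 887, 935 and 1003 on the rESC-RPC1 arrays and 2432, 2647 and 2459 on the P-RPC arrays. Its rESC-RPC2 arrays were all above rESC-RPC1 and all below P-RPC, at a log2 difference of 0.28 against rESC-RPC1 (adjusted p = 0.024). Cenpe, Ccna2 and Cenpn had log2 estimates of 0.41, 0.17 and 0.10, which did not pass the test (adjusted p = 0.135, 0.321 and 0.573).

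**Figure D4:**
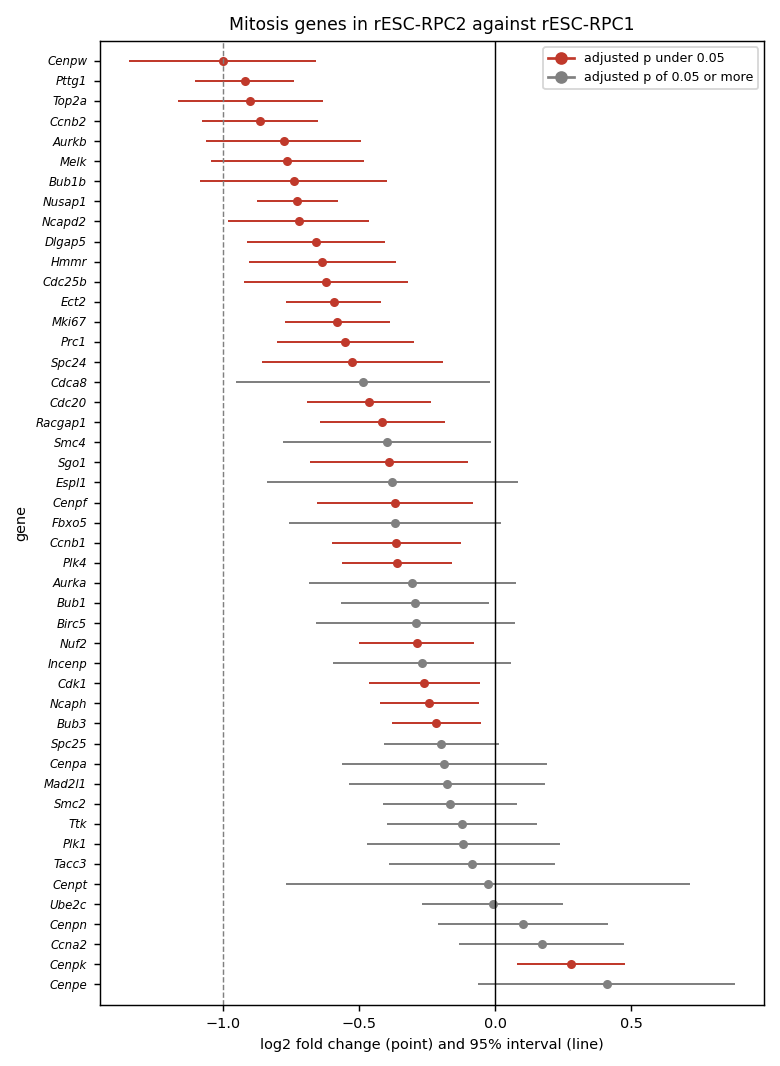
Log2 fold change (x axis) of each mitosis gene (rows) in rESC-RPC2 against rESC-RPC1 with its 95% interval, coloured by whether the adjusted p was under 0.05, with a dashed line at a fold of 2. The point of Cenpw alone reaches the line, 27 genes are coloured, and Cenpk is the coloured gene right of 0.

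The members also moved together between replicates. On the first rESC-RPC2 array, 38 of 47 genes had their highest rESC-RPC2 signal, where 41.7% of all genes tested did, with a median deviation of 0.17 on the log2 scale from the group mean. On the third rESC-RPC1 array 32 of 47 were highest (37.8% of all genes), and on the second 27 were lowest (39.0%). Mesenchymal and smooth muscle markers ran in the same direction. Their summed signals were 16728, 9225 and 12520 on the rESC-RPC2 arrays and 28413, 17531 and 42941 on the rESC-RPC1 arrays. Neuronal markers ran against it, at 52865, 58922 and 58850 and at 22665, 30123 and 20857. On the rESC-RPC1 arrays so did the summed markers of glia (54177, 68160 and 46889), pigment epithelium (4581, 6202 and 1879) and retinal progenitors (20962, 22083 and 16604). Their part in the result was not tested. Without rESC-RPC2 replicate 1, 35 members were called lower than P-RPC with a median of -1.27, and without rESC-RPC1 replicate 3, 21 were called lower with a median of -0.94.

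The spread within groups was small beside the steps against P-RPC. The median coefficient of variation of the 47 genes was 12.1% in rESC-RPC2, 9.83% in rESC-RPC1 and 5.51% in P-RPC. The widest was 35.6% for Cdca8 in rESC-RPC2, whose arrays read 1219, 726 and 652, and 48.6% for the dim Cenpt in rESC-RPC1.

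Other genes of the mitotic pathway moved less as lists, where both the members and the lists were chosen with earlier results known. Of 131 more genes in 6 lists, 111 were tested. Among these, 27 were called lower and 3 higher in rESC-RPC2, against P-RPC (13.0% and 10.7% of all genes), and 18 lower and 3 higher in rESC-RPC1 (9.56% and 12.0%). Their median log2 fold change was -0.52 and -0.47, beside -1.19 and -0.88 for the 47 genes. In rESC-RPC2, 12 of 21 other spindle, centrosome and cytokinesis genes were called lower and 1 higher, with a median of -1.07. Of 24 other kinetochore and centromere genes 7 were called lower (median -0.62), and of 17 subunits and regulators of the APC/C 0 were called (median -0.01). Single genes of these lists fell as far as the members or further. Knl1 gave -2.42 in rESC-RPC2 and -2.37 in rESC-RPC1, where 1 array was under the detection threshold. Troap was under that threshold on all rESC-RPC arrays, against signals of 454 to 594 in P-RPC.

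Aspm, a spindle pole protein needed for progenitor divisions in the brain, was called lower in both, with log2 fold changes of -1.94 in rESC-RPC2 (adjusted p = 1.63e-07) and -1.05 in rESC-RPC1. Arhgap11a, from the same list, gave -1.68 and -1.72, called in both. The kinetochore gene Cenpl was called in both at -1.01 and -1.17 on the log2 scale, and Ska1, also of the kinetochore, in rESC-RPC2 at -1.54 with -0.90 in rESC-RPC1. Foxm1, the factor that switches on late cell cycle genes, was called lower in both, with log2 fold changes of -1.39 in rESC-RPC2 (adjusted p = 8.84e-05) and -1.17 in rESC-RPC1 (adjusted p = 0.000317). Rbl1, or p107, of the repressor complexes on the same promoters, was called in both at -1.55 and -1.00. Esco2, which acetylates cohesin, was called at -1.76 and -1.53, and in rESC-RPC2 alone Cks2, a CDK subunit, at -1.28 and Wapl, which releases cohesin, at -1.29.

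Of the listed genes, 3 were called higher in both comparisons. Nek6, a kinase of the NIMA family, rose by 2.75 on the log2 scale in rESC-RPC2 (adjusted p = 1.27e-06) and 3.05 in rESC-RPC1. Plk2, a polo-like kinase that also acts at synapses, rose by 2.24 and 2.33 in the same comparisons, and Tacc1, a centrosomal coiled-coil protein, by 1.16 and 1.70. Of the members themselves, Plk1 and Tacc3, from the same families as Plk2 and Tacc1, had log2 fold changes of -0.30 and -0.77 in rESC-RPC2. Anapc4, a scaffold subunit of the APC/C, gave log2 fold changes of -0.96 in rESC-RPC2 and -1.03 in rESC-RPC1, where it was called.

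**Figure D5:**
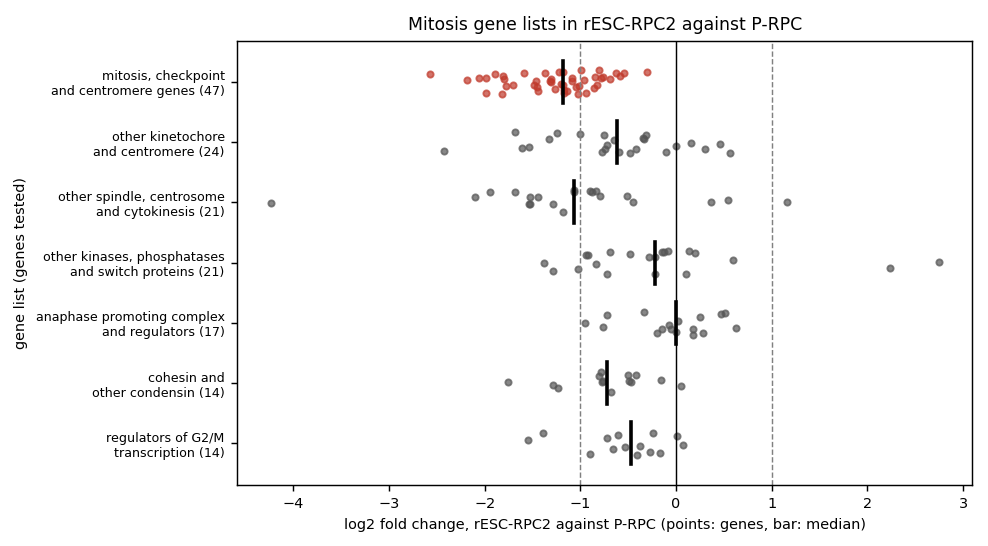
Log2 fold change in rESC-RPC2 against P-RPC (x axis) of each gene (points) in the 47 mitosis genes and in 6 other lists of the mitotic pathway (rows, with the number tested), with the median as a bar and dashed lines at a fold of 2 each way. The mitosis genes are all left of 0 with a median of -1.19, and the APC/C list straddles 0.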

How the data were processed

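Total RNA of 9 samples, 3 each of rESC-RPC2, rESC-RPC1 and P-RPC, was hybridised to 1 array each. The deposited values are intensities, which the authors made with the MAS 5.0 method in GeneSpring. The trimmed mean was 500.2 on every array, and array medians were 113 to 128. The deposited signals were floored at 1 and taken to log2. Of 31099 probe sets, 57 were controls, and of the rest 20826 carried 1 gene symbol, 436 several and 9780 none in the platform annotation. The probe set with the highest mean stood for a gene. A gene was tested if at least 3 of 9 arrays had 123 or more, the median over every probe set and array. limma 3.58.1 (R 4.3.3) fitted 1 mean per cell type with a mean-variance trend, with Benjamini-Hochberg adjustment. The number of arrays, 3 per cell type, limits the precision. The members and lists were chosen with earlier results of these data known. Values on every array were given, by rule, for the member of each role with the largest and the smallest absolute change in rESC-RPC2 against P-RPC, any member called between the rESC-RPCs or called higher, and Cdk1, Ccnb1, Top2a and Mki67. Those of Pttg1, Cenpk, Cenpe and Cdca8 were added after their values were seen. Outside the members, the 10 genes most like them and up to 2 called genes a list with the smallest adjusted p were named, and Tacc1, Nek6, Knl1 and Troap were added likewise. Alternatives were the floor, the filter, the probe set rule, quantile normalization, median centring, a replicate block, the methods' t-test and leaving out each array. The labels do not say whether replicate numbers pair samples, and the main fit did not pair them. Of 9 same-numbered pairs, with correlations of -0.04 to 0.27, 1 was over 0.1, that of replicate 2 of the rESC-RPCs. Pairs of unlike number were not compared, so this cannot decide whether the samples are paired. Promoters came from RefSeq (GRCr8) and were matched by gene ID.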

Additional observations from a re-analysis of the deposited data

Results flagged for a closer look

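Cenpw was the gene among the 47 whose fall against P-RPC differed between the rESC-RPCs by a called amount. Its log2 fold change against P-RPC was -1.80 in rESC-RPC2 and -0.80 in rESC-RPC1, and the direct test of rESC-RPC2 against rESC-RPC1 gave -1.00 (adjusted p = 0.000422 from limma, lower on 3 of 3 arrays). A second probe set of Cenpw gave -0.54, -1.98 and -1.43 for rESC-RPC2 against rESC-RPC1, rESC-RPC2 against P-RPC and rESC-RPC1 against P-RPC.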

How the results depend on the processing

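Against P-RPC, the counts of mitosis genes called lower held within 1.5 times under every alternative run: 30 to 33 in rESC-RPC2 and 17 to 18 in rESC-RPC1 under other settings, and 30 to 35 and 17 to 21 with 1 array left out. Of the calls, 27 of 33 in rESC-RPC2 and 13 of 18 in rESC-RPC1 were kept in every setting, with Cenpt, which the stricter filter and the mean of probe sets left untested, counted as not kept. The count in rESC-RPC2 against rESC-RPC1, which is Cenpw alone, was 0 with the mean of all probe sets of a gene, with median centring and with quantile normalization, and 0 to 1 with 1 array left out (0 without rESC-RPC2 replicate 3 and without rESC-RPC1 replicate 3). The log2 fold change of Cenpw was then -0.77, -0.95, -0.99, -0.87 and -0.99 in that order. With the replicate block the counts were 33, 18 and 1, and the methods' t-test gave the same; the block changed no call.

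Over all 47 genes and these settings, the direction turned for 1 gene in rESC-RPC2 against P-RPC, 0 in rESC-RPC1 against P-RPC and 6 in rESC-RPC2 against rESC-RPC1. For Bub3, the mean of all probe sets gave 0.0545 in rESC-RPC2 against P-RPC and 0.25 against rESC-RPC1, by its dim second probe set. Between the rESC-RPCs, Cenpt, under the detection threshold on all arrays of rESC-RPC2, gave 0.0302 with quantile normalization and 0.0286 with median centring, and -0.47 to 0.32 with 1 array left out. Plk1 ranged from -0.28 to 0.0501, Tacc3 from -0.22 to 0.0127 and Cenpn from -0.0368 to 0.23 with 1 array left out. Ube2c was 0.0451 with median centring and also turned with single arrays left out. For these and Cenpt the cause was not tested. Among the other values of the members named by the rule, 1215 kept direction and side of the threshold, 5 newly passed it and 6 no longer did. With 3 arrays per cell type, a single cell line and no second strain, cell type, strain and culture cannot be told apart, and signals near the detection threshold limit Cenpt.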

Other observations

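Genes outside the 47 members with the pattern most like the members were ranked by Pearson's r, over the 9 arrays, between a gene's log2 signal and the mean of the members' standardized log2 signals. The arrays are 3 groups of 3, so this likeness mostly follows the steps between groups and is a description without a test. The closest were Gpsm2 (0.995), which orients the spindle, Cdca3 (0.995), a cell division protein, Fancl (0.994), a ubiquitin ligase of DNA crosslink repair, Mrpl18 (0.994), a mitochondrial ribosomal protein, and Gtpbp10 (0.994). E2f8, Aldh1a1, Ptrhd1, Mxd3 and Cks2 followed at 0.993 to 0.992. Cdca3 and Cks2 belong to the lists of other mitosis genes. Gpsm2 had signals of 749, 575 and 627 on the rESC-RPC2 arrays, 1143, 909 and 1118 on the rESC-RPC1 arrays and 3286, 3338 and 3459 on the P-RPC arrays. The groups were apart, and its log2 fold changes against P-RPC were -2.38 in rESC-RPC2 and -1.68 in rESC-RPC1. Aldh1a1, a retinaldehyde dehydrogenase, is not a gene of mitosis and averaged 34.1 ± 12.4, 183 ± 45.3 and 8307 ± 996 in rESC-RPC2, rESC-RPC1 and P-RPC (SD, n = 3 each). Among the members, Ccnb1 followed the mean most closely (r = 0.997), and Plk1 (0.681) and Cenpe (0.755) least.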
